A study of Saccharomyces cerevisiae with 24 samples.

Results

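The extra response to IFH1 at 30 min is the change in transcript level over the first 30 min of galactose in a strain whose IFH1 gene is switched on by galactose, beyond the change over the same 30 min in a strain with IFH1 under its own upstream sequence. For each probe set it is the difference (YSS89 at T=30 minus YSS89 at T=0) minus (YSS37 at T=30 minus YSS37 at T=0) of normalized log2 signals, so a value of 1 means that the change was 2-fold larger in YSS89. It uses 12 of the 24 arrays of the study, 3 in each of 4 groups, and all 9275 probe sets on the array that are not controls. Both strains of Saccharomyces cerevisiae are MATa haploids with a 13myc tag on IFH1 and TRP1 as the marker of the tag, and both were grown to log phase in YPLG medium before galactose was added to 2%. In YSS37, labelled wild-type, the tagged gene keeps its own upstream activating sequence. In YSS89 the upstream activating sequence of IFH1 is replaced by that of GAL1, with HIS3 as the marker. The labels give the times as plain numbers, read here as minutes. Galactose was given to both strains, so a change common to both cancels in the difference. What remains holds the induced IFH1, other differences between the strains, and the rounds and chip lots in which their arrays were run. Each strain is a single genotype, and nothing in the labels says whether more than 1 isolate of it was used.

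Ifh1 is a coactivator of the genes for cytosolic ribosomal proteins (RP genes). It binds the forkhead protein Fhl1, which sits at RP promoters beside Rap1, and the occupancy of Ifh1 there falls when TOR signalling is low. Ribosome assembly factors form a separate regulon with other promoter elements, controlled by the repressors Dot6 and Tod6, the activator Sfp1 and others. Galactose releases the activator Gal4 from Gal80, and Gal4 then drives the GAL genes and any gene placed behind the GAL1 upstream sequence.

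IFH1 itself carried the largest extra response of all genes. Its normalized log2 signal was 4.28, 4.44 and 5.08 on the 3 YSS37 arrays at 0 min and 5.14, 5.02 and 5.38 at 30 min. In YSS89 it was 4.51, 4.37 and 4.95 at 0 min and 10.21, 10.16 and 10.24 at 30 min. The 3 YSS89 arrays at 30 min stood far above the other 9, and before galactose the strains overlapped. On the linear scale the mean signal went from 26.4 ± 7.10 to 1296 ± 77.8 in YSS89 and from 20.8 ± 7.07 to 33.7 ± 4.23 in YSS37 (SD, n = 3). The log2 change was 5.59 in YSS89 and 0.58 in YSS37, an extra response of 5.01 ± 0.24 (SE; limma adjusted p = 2.21e-10).

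Across the 5656 genes, each taken through its brightest probe set, 280 had a larger change in YSS89, which is 4.95% of those tested, and 496 had a smaller or more negative one, 8.77% (limma, Benjamini-Hochberg adjusted p under 0.05 over all 9275 probe sets). The extra response was at least 2-fold in 96 of the former and 273 of the latter. The 4.95% and 8.77% are the background shares for the counts of the gene lists below. Called lower were 66.7% of TCA cycle, 45.5% of respiratory chain, 44.4% of sulfur, 43.8% of phosphate, 42.3% of purine and 37.5% of glycolysis genes. That share was 29.0% for chaperones, 24.1% general stress, 23.9% cell cycle, 20.8% iron and copper, 19.2% ergosterol and 18.2% proteasome genes. Called higher were 27.8% of mitochondrially encoded and 20.0% of small RNA genes. Over all probe sets 421 (4.54%) were called higher and 573 (6.18%) lower. The median extra response of all genes was -0.03 and the median SE of a gene was 0.25, so single differences under about 2-fold were often not detectable with 3 arrays a group. As deposited, without further normalization, the same fit called 187 genes higher (3.31%) and 734 lower (13.0%) with an all-gene median of -0.18. With median centring it called 468 higher (8.27%) and 311 lower (5.5%) with a median of 0.11. The share of higher calls was thus 36.1% after quantile normalization, 20.3% as deposited and 60.1% after median centring.

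Of the 12 arrays, 2 stood apart. YSS89 replicates b and c at 0 min were hybridized in a later round with no recorded chip lot and were scanned at a finer pixel size, and their 25S ribosomal RNA control signals were 313.0 and 90.9 against 560.1 to 1056.1 on the other 10 arrays. All 6 YSS37 arrays were hybridized in the first round and on 1 recorded lot, and all YSS89 arrays in later rounds. YSS89 replicate a was in round 2 at both times, on a recorded lot that may be that of YSS37. At 30 min its replicates b and c were in round 3 on another recorded lot, and at 0 min in round 4. Strain and round thus cannot be told apart in the difference of strains, although each strain's own change partly can. Without those 2 arrays, when YSS89 at 0 min rests on 1 array assumed to vary like the rest, 133 genes (2.35%) were called higher and 262 (4.63%) lower. Within rounds, with 1 YSS89 array at each time, the counts were 26 (0.46%) and 85 (1.5%). Leaving out YSS89 replicate 3 at 30 min alone lowered the higher count to 184. Values without replicates b and c at 0 min are given where their absence ends a call among the genes described.

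**Figure D1:**
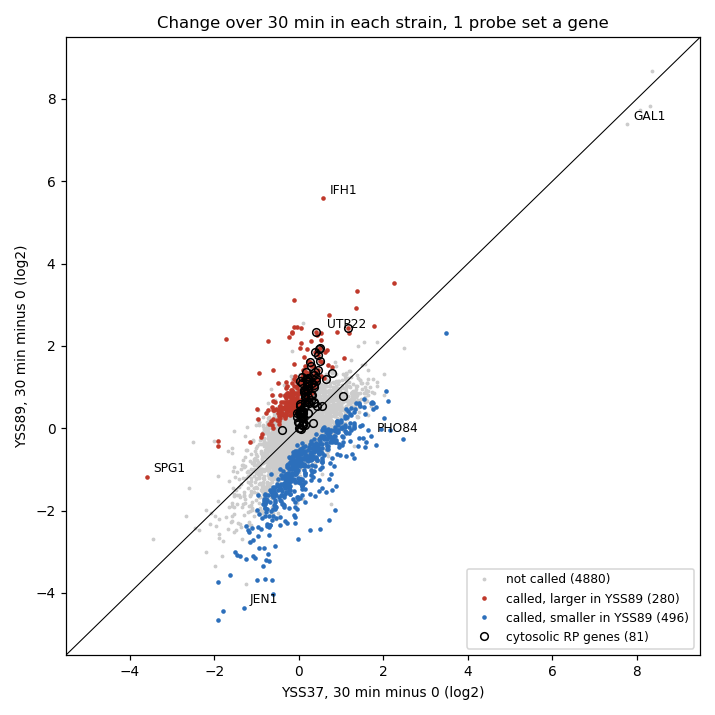
Each point is 1 of 5656 genes; the x axis is its log2 change from 0 to 30 min in YSS37 and the y axis the same in YSS89, and the diagonal marks equal changes. Red points are the 280 genes called higher in the extra response and blue points the 496 called lower, grey points were not called, and open circles are the 81 RP genes, which lie mostly above the diagonal; IFH1 stands alone at 5.59 in YSS89.

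Many RP genes had a larger change in the strain with induced IFH1 than in the control strain. Of 81 RP genes with a probe set of their own, 38 were called higher and none lower, against 4.95% and 8.77% of all genes, and their median extra response was 0.52 beside -0.03. The large subunit gave 22 of 47 called and a median of 0.50, and the small subunit 16 of 34 and 0.53. The remaining RP genes are reached only by probe sets that name several genes, mostly both copies of a duplicated gene. There were 59 probe sets naming RP genes alone, of which 20 were called higher and 0 lower, with a median of 0.48. The series is titled for these genes and the list was chosen with its results known, so the direction is not independent evidence.

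Averaged over the 47 large-subunit genes and expressed as mean log2 above the median of all genes, the level on the YSS37 arrays was 4.63, 4.74 and 4.82 at 0 min and 4.91, 4.90 and 4.98 at 30 min. On the YSS89 arrays it was 4.50, 4.59 and 4.55 at 0 min and 5.37, 5.36 and 5.36 at 30 min. The 3 YSS89 arrays at 30 min were above every other array, and the YSS89 arrays at 0 min were below every YSS37 array. The 34 small-subunit genes went from 4.67, 4.78 and 4.73 in YSS89 at 0 min to 5.57 on all 3 arrays at 30 min, and from 4.76, 4.89 and 4.94 to 5.08, 5.05 and 5.15 in YSS37. Here too the YSS89 arrays at 30 min were above every other array, while the strains overlapped at 0 min. Quantile normalization gives all arrays the same distribution, which can bring the levels of bright genes closer together across arrays. How far the closeness of the 3 arrays comes from that step was not tested. The median change of the 81 genes was 0.76 in YSS89 and 0.18 in YSS37.

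Among small-subunit genes RPS26B changed most. Its log2 signal was 8.07, 8.30 and 8.62 in YSS37 at 0 min and 8.49, 8.70 and 9.03 at 30 min, against 7.58, 7.98 and 7.90 in YSS89 at 0 min and 10.13, 10.12 and 10.19 at 30 min. The YSS89 arrays at 30 min lay above all others, while the YSS37 groups overlapped. The extra response was 1.91 ± 0.20, or 3.77-fold (adjusted p = 1.88e-05), made of a change of 2.33 in YSS89 and 0.41 in YSS37. RPS7B followed at 1.47 ± 0.20, RPS0A at 1.18 ± 0.19 and RPS7A at 1.16 ± 0.23.

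Among large-subunit genes RPL33B had the lowest adjusted p. It read 8.93, 8.97 and 9.04 in YSS37 at 0 min and 9.40, 9.35 and 9.66 at 30 min, and 8.66, 8.59 and 8.69 in YSS89 at 0 min and 10.65, 10.55 and 10.52 at 30 min. None of the 4 groups overlapped another. Its extra response was 1.44 ± 0.14 (adjusted p = 8.61e-06), with RPL9A at 1.46 ± 0.30, RPL15A at 1.34 ± 0.22 and RPL31B at 1.31 ± 0.18. At the low end RPL37B stood at -0.22 ± 0.26 and RPS28B at -0.25 ± 0.24, neither called. RPL37B turned to 0.20 without replicates b and c, and after median centring they stood at 0.77 and 0.93.

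**Figure D2:**
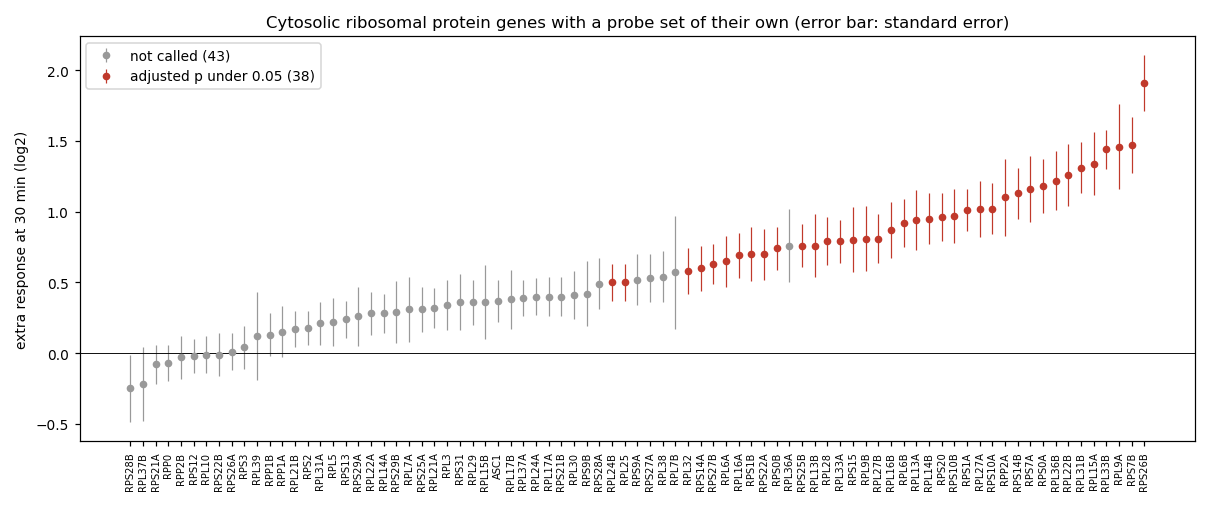
Extra response at 30 min (y axis, log2) of the 81 RP genes with a probe set of their own, sorted from lowest to highest along the x axis; error bars are standard errors. The 38 called genes (red) run up to 1.91 for RPS26B and all lie above 0, and the lowest uncalled gene, RPS28B, lies at -0.25.

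RP genes present in duplicate did not always share a call. Among 29 pairs with both copies measured, both were called in 11, 1 copy in 10 and none in 8, and the median gap between copies was 0.44. These counts hold for the quantile normalized values, where 38 of the 81 RP genes were called. As deposited 76 were called and after median centring 79, and pairs were not counted on those scalings. The widest gap was between RPS26B at 1.91 and RPS26A at 0.01. Next came RPL31B at 1.31 and RPL31A at 0.21, RPL22B at 1.26 and RPL22A at 0.28, and RPL15A at 1.34 and RPL15B at 0.36. The differences between copies were not tested. Paralogs are close in sequence, and how far a probe set also reads the other copy was not tested.

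All 3 YSS89 arrays at 30 min lay above the other 9 arrays for 58 of the 81 RP genes, 71.6%, against 19.4% of all genes. The size of the RP response depends on the scaling: the median was 1.05 with 76 genes called on the values as deposited, and 1.34 with 79 called after median centring. Counted from the all-gene median of each, the RP median was 0.55 after quantile normalization, 1.24 as deposited and 1.24 after median centring. The equality of the latter values is fixed by construction, since median centring only shifts each array by a constant. Without replicates b and c, 32 were called with a median of 0.61, and within rounds 8 with a median of 0.56.

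**Figure D3:**
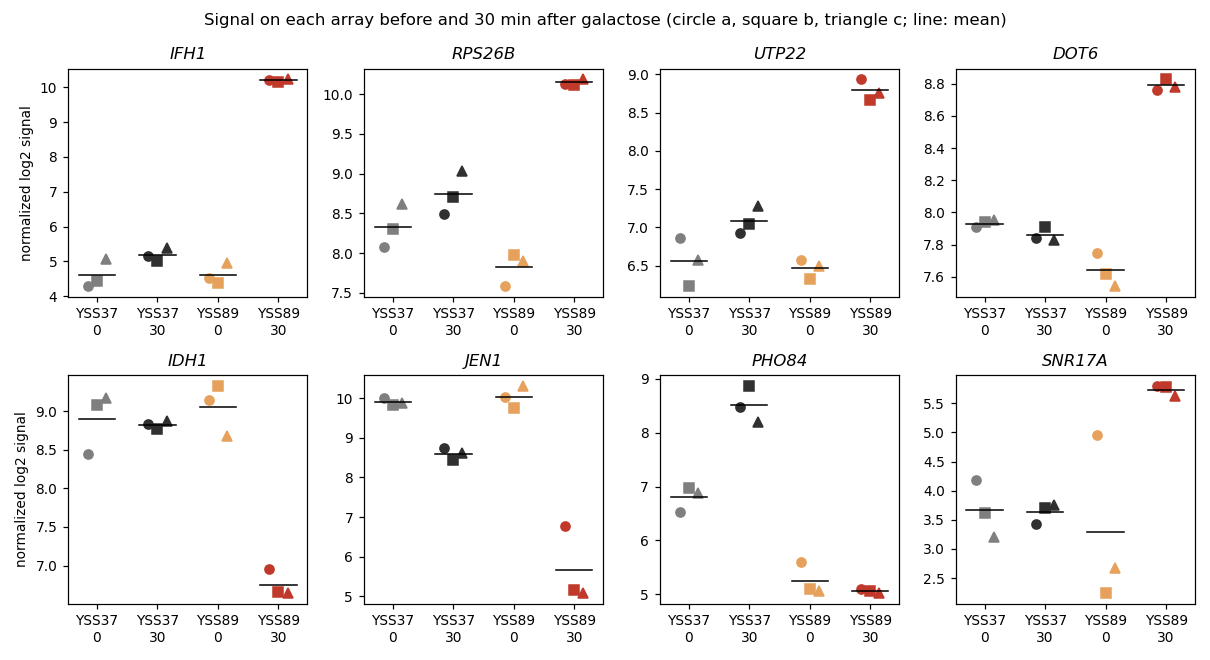
Normalized log2 signal (y axis) of 8 genes on each of the 12 arrays, by strain and minutes after galactose (x axis); symbols are replicates a, b and c and the lines are means of 3. IFH1, RPS26B, UTP22 and DOT6 are highest in YSS89 at 30 min, IDH1 and JEN1 are lowest there, PHO84 is higher in YSS37 than in YSS89 at both times, and SNR17A is low on YSS89 replicates b and c at 0 min.

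Of 23 genes for regulators of RP and ribosome assembly genes, 5 (21.7%) were called higher, the induced IFH1 among them, and 0 lower. Of all genes, 4.95% were called higher and 8.77% lower. DOT6, a repressor of ribosome assembly genes, read 7.91, 7.94 and 7.95 in YSS37 at 0 min and 7.84, 7.91 and 7.83 at 30 min, and 7.75, 7.62 and 7.54 and then 8.76, 8.83 and 8.78 in YSS89. The YSS89 arrays at 30 min were above all others, for an extra response of 1.22 ± 0.16 (adjusted p = 9.65e-05). TOR2, a TOR kinase, had 1.13 ± 0.17 (adjusted p = 0.00037), ABF1, a general regulatory factor at some RP promoters, 0.85 ± 0.19 (adjusted p = 0.0075; 0.0572 without replicates b and c and 0.0603 as deposited), and CKB1, a regulatory subunit of casein kinase 2, 0.55 ± 0.17 (adjusted p = 0.0423; 0.167 without replicates b and c and 0.186 as deposited).

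The partners of Ifh1 at RP promoters did not pass the test. FHL1 read 4.50, 4.43 and 3.74 and then 4.39, 4.09 and 4.37 in YSS37, and 4.33, 4.22 and 4.24 and then 4.93, 4.86 and 5.09 in YSS89. The YSS89 arrays at 30 min were the highest, but the extra response of 0.64 ± 0.22 had an adjusted p of 0.0714. RAP1 had 0.66 ± 0.22 (adjusted p = 0.0606) and CKA1, a catalytic subunit of casein kinase 2, 0.84 ± 0.27 (adjusted p = 0.0505). SFP1 had 0.04 ± 0.21, TOD6 had -0.74 ± 0.30, and HMO1, a high-mobility-group protein at RP promoters, had 0.21 ± 0.26, which turned to -0.20 without replicates b and c.

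Of 72 genes for assembly of the 40S subunit, 2 were called higher and 13 lower, with a median of -0.43, and of 85 for the 60S subunit 0 and 8, with a median of -0.42. The lower calls were 18.1% of the 40S and 9.41% of the 60S genes, the latter near the 8.77% of all genes. These genes started at different levels. The mean log2 level of the 60S group was -0.41, -0.37 and 0.09 in YSS37 at 0 min and 0.90, 0.67 and 1.0 at 30 min, against 0.65, 0.96 and 0.98 in YSS89 at 0 min and 1.56, 1.60 and 1.58 at 30 min. At each time the level was higher in YSS89, and its rise was the smaller one, with a median change of 0.68 against 1.15 in YSS37. NSR1, a nucleolar protein for processing of ribosomal RNA, is an example. It read 6.80, 6.92 and 7.24 and then 8.64, 8.22 and 8.68 in YSS37, and 8.36, 9.18 and 9.44 and then 8.47, 8.94 and 8.87 in YSS89. YSS89 before galactose was already in the range reached by YSS37 at 30 min or above it, and the extra response was -1.76 ± 0.30 (adjusted p = 0.00109), or -1.12 (adjusted p = 0.0268) without replicates b and c, which had its highest signals. Without replicates b and c the 40S group gave 2 higher and 2 lower calls with a median of -0.24, and the 60S group 0 and 0 with -0.17.

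UTP22, a component of the complex that processes the 40S precursor, went the other way. Its log2 signal was 6.86, 6.23 and 6.58 and then 6.93, 7.04 and 7.28 in YSS37, and 6.58, 6.33 and 6.49 and then 8.94, 8.67 and 8.75 in YSS89. The strains overlapped before galactose, and at 30 min YSS89 stood above all other arrays. The extra response was 1.79 ± 0.28, or 3.47-fold (adjusted p = 0.000464; 1.68 without replicates b and c), and of its 6 probe sets 4 were called, with values from 0.27 to 1.79. Utp22 is also known from the CURI complex, which holds casein kinase 2, Rrp7 and Ifh1. RRP7 had 0.25 ± 0.28 and was not called. Of the casein kinase 2 genes CKB1 was called, but CKA1, CKA2 at 0.36 ± 0.23 and CKB2 at -0.03 ± 0.23 were not. A response of the complex as a whole was not tested. The other higher call was SLX9, a 40S export factor, at 0.84 ± 0.23 (adjusted p = 0.0248; 0.197 as deposited).

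Other parts of the translation machinery were mixed. Of 20 aminoacyl-tRNA synthetase genes 7 were called higher and 0 lower, with a median of 0.41, and 5 with a median of 0.47 without replicates b and c. YHR020W, the proline enzyme, led. It read 7.20, 7.17 and 7.31 and then 7.75, 7.70 and 8.09 in YSS37, and 7.18, 7.41 and 7.49 and then 9.39, 9.25 and 9.01 in YSS89, highest on the 3 YSS89 arrays at 30 min. Its extra response was 1.24 ± 0.24 (adjusted p = 0.00278), and CDC60, the leucine enzyme, followed at 0.96 ± 0.21 (adjusted p = 0.00638; 0.0594 without replicates b and c). Of 40 translation factor genes 3 (7.5%) were called higher and 1 (2.5%) lower, against 4.95% and 8.77% of all genes. Their median of -0.08 turned to 0.25 after median centring. The higher calls were TIF4631, the scaffold eIF4G, at 0.79 ± 0.16, GCD2, a subunit of eIF2B, at 0.68 ± 0.16, and NIP1, a subunit of eIF3, at 0.62 ± 0.17. On the values as deposited GCD2 and NIP1 had adjusted p = 0.132 and 0.255, and without replicates b and c NIP1 had 0.195. EFB1, an elongation factor subunit, was called lower at -0.86 but stood at 0.26 after median centring, and had an adjusted p of 0.125 without replicates b and c. Of 39 genes for RNA polymerases I and III 0 were called higher and 4 lower, or 10.3% against 8.77% of all genes, with a median of -0.13, and 1 was called lower without replicates b and c. Of 71 genes for mitochondrial ribosomal proteins 0 were called in either direction, with a median of -0.20 that became 0.07 without replicates b and c.

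**Figure D4:**
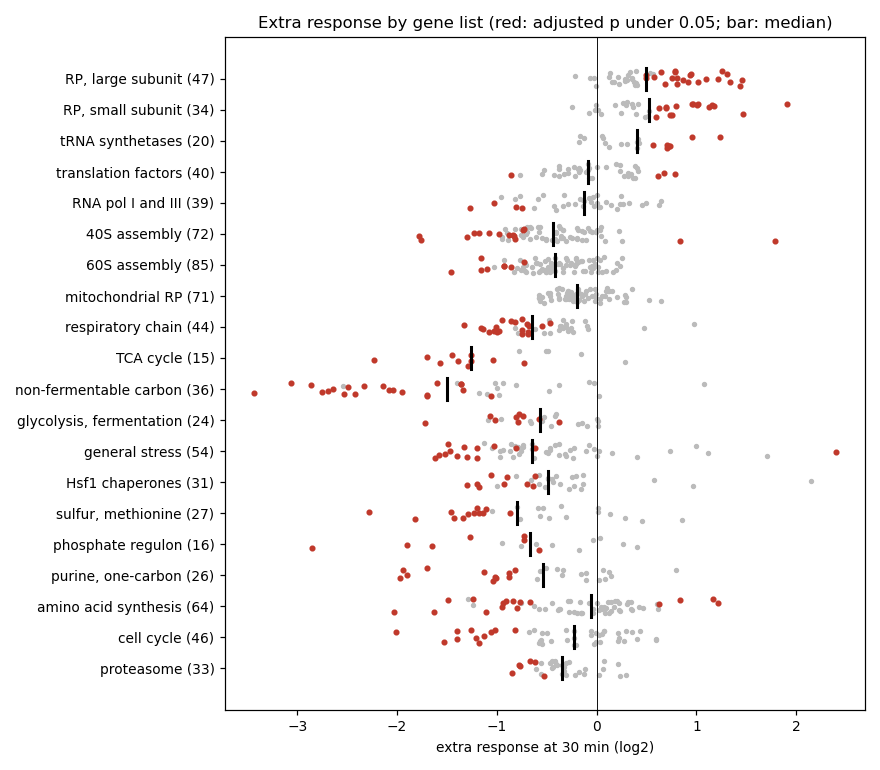
Extra response at 30 min (x axis, log2) of the members of 20 gene lists (rows, with the number measured); red points have an adjusted p under 0.05, grey points do not, and black bars are medians. RP genes and tRNA synthetases lie mostly to the right of 0, with medians from 0.41 to 0.53, and the TCA cycle and the genes for non-fermentable carbon furthest to the left, with medians of -1.26 and -1.5.

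The largest negative extra responses were in a list of 36 genes for growth on non-fermentable carbon. It covers the glyoxylate cycle, gluconeogenesis, uptake of lactate and glycerol, and regulators of these. It also holds ethanol, acetate, carnitine and peroxisomal fatty acid oxidation genes, and FDH1. Of the 36 genes 21 were called lower and 0 higher, with a median of -1.5, against 8.77% of all genes called lower. The fatty acid oxidation genes POX1, FOX2, POT1, FAA2, PXA1, PXA2, SPS19 and CTA1 were not called. The median change of the 36 genes was -2.40 in YSS89 and -0.86 in YSS37. JEN1, the lactate permease, read 10, 9.83 and 9.87 and then 8.75, 8.44 and 8.62 in YSS37, and 10.02, 9.75 and 10.31 and then 6.77, 5.17 and 5.08 in YSS89. The strains overlapped before galactose and were far apart at 30 min, with YSS89 replicate a above the other 2 at that time. Those other 2 were hybridized in a later round and on another recorded lot than replicate a. The mean log2 level of the 36 genes, relative to the median of all genes, split likewise. It was -0.25 on replicate a and -0.76 and -0.78 on b and c. The extra response of JEN1 was -3.06 ± 0.45 (adjusted p = 0.000292), and -1.95 within rounds.

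Of the 36 genes 2 had a positive value, CIT2, the peroxisomal citrate synthase gene, at 1.08 (adjusted p = 0.0598, but 1.60 with adjusted p = 0.0182 without replicates b and c) and YAT2, a carnitine acetyltransferase gene, at 0.02. MLS1, malate synthase of the glyoxylate cycle, had -3.43 ± 0.63 (adjusted p = 0.00198), the lowest value of any gene called. Within rounds, with 1 YSS89 array at each time, MLS1 stood at -2.25, FBP1 at -1.82 and STL1 at -1.57. The median of the 36 genes within rounds was -1.07. FBP1, fructose-1,6-bisphosphatase of gluconeogenesis, had -2.86 ± 0.64 (adjusted p = 0.0073; 0.084 without replicates b and c), and STL1, a glycerol importer, -2.75 ± 0.58 (adjusted p = 0.00483; 0.0658 without them). SFC1, the mitochondrial succinate-fumarate carrier, had -2.69 ± 0.43 (-1.97 within rounds). MDH2, cytosolic malate dehydrogenase, had -2.49 ± 0.39 (-1.60 within rounds), and GUT1, glycerol kinase, -2.53 ± 0.28 (-1.80 within rounds). The isocitrate lyase gene ICL1 was at -2.14 (-1.42 with adjusted p = 0.124 without replicates b and c) and CAT8, the zinc-cluster activator of gluconeogenic genes, at -2.08. Without replicates b and c the group had 10 called lower and 1 higher with a median of -1.39.

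Of 15 TCA cycle genes 10 were called lower and 0 higher, with a median of -1.26, and without replicates b and c 10 and 0 with -1.04. IDH1, a subunit of isocitrate dehydrogenase, read 8.44, 9.08 and 9.17 and then 8.83, 8.77 and 8.87 in YSS37, and 9.14, 9.33 and 8.68 and then 6.95, 6.66 and 6.64 in YSS89. The first 3 groups overlapped, and only YSS89 at 30 min was lower. The extra response was -2.23 ± 0.28, a 4.68-fold difference (adjusted p = 6.9e-05), made of a change of -2.30 in YSS89 and -0.08 in YSS37. IDH2, the other subunit, had -1.70 ± 0.23, CIT1, citrate synthase, -1.57 ± 0.22, and PYC1, pyruvate carboxylase, -1.45 ± 0.27. Of 44 nuclear genes of the respiratory chain and ATP synthase 20 were called lower and 0 higher with a median of -0.65, among them SDH2 at -1.14 ± 0.14, SDH1 at -1.16 ± 0.22 and the lactate dehydrogenase gene DLD1 at -1.08 ± 0.15. On the values as deposited 16 respiratory genes were called lower, and after median centring 4, with a median of -0.14.

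The glycolysis and fermentation group had 9 of 24 genes called lower and 0 higher with a median of -0.57, but its direction rests on the normalization, with a median of 0.04 and 2 lower calls after median centring and -0.25 and 3 as deposited. ENO1, enolase, had -1.72 ± 0.31 (adjusted p = 0.00155). ADH1, alcohol dehydrogenase, had -1.02 ± 0.12 and GPM1, phosphoglycerate mutase, -0.81 ± 0.16, which became -0.13 and 0.05 after median centring, neither called. The 18 hexose transport and sensing genes gave 2 lower calls, or 11.1%, and a median of -0.50, and without replicates b and c 0 lower and 1 higher.

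**Figure D5:**
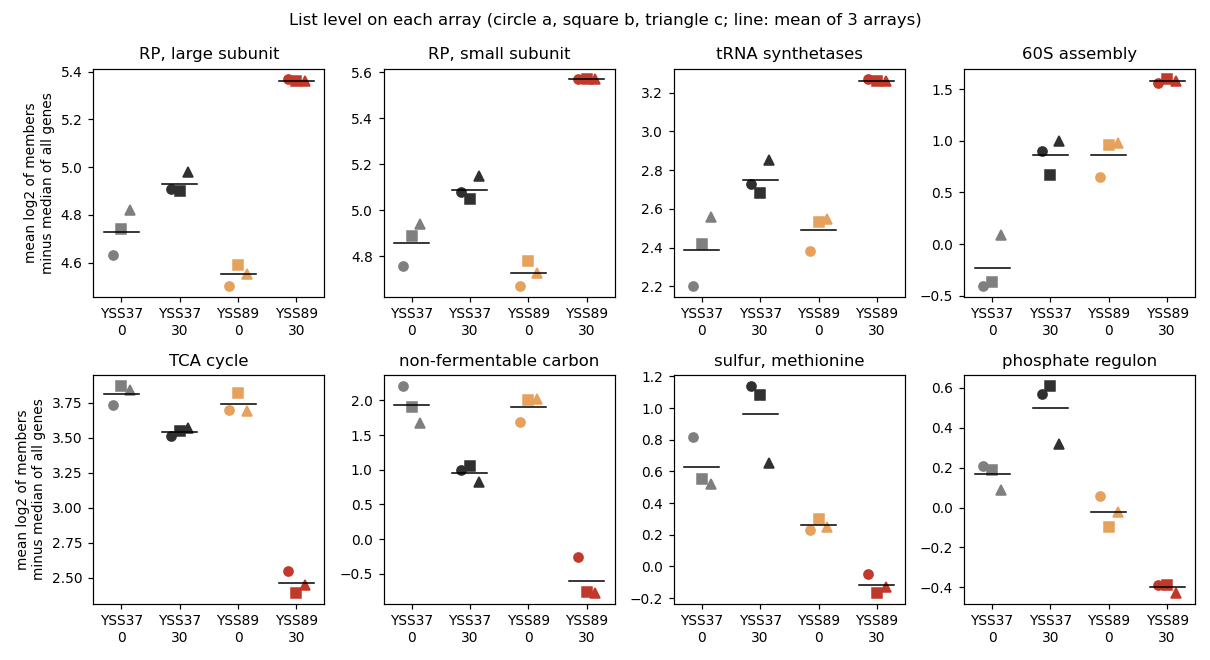
Mean log2 level of the members of 8 gene lists, minus the median of all genes (y axis), on each of the 12 arrays by strain and minutes after galactose (x axis); symbols are replicates a, b and c and lines are means of 3. RP genes and tRNA synthetases are highest in YSS89 at 30 min, 60S assembly genes are lowest in YSS37 at 0 min, and the sulfur and phosphate groups are higher in YSS37 at 30 min than in YSS89 at either time.

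In the phosphate group 7 of 16 genes were called lower and 0 higher, with a median of -0.67 (5 lower without replicates b and c), and here the change in the control strain carried part of the difference. PHO84, the high-affinity phosphate transporter, read 6.53, 6.97 and 6.89 and then 8.47, 8.87 and 8.19 in YSS37, and 5.60, 5.10 and 5.07 and then 5.10, 5.07 and 5.02 in YSS89. It rose by 1.71 on the log2 scale in YSS37 (adjusted p = 0.000166), while its change in YSS89 was -0.19 (adjusted p = 0.63), and YSS89 was lower already at 0 min. The extra response was -1.90 ± 0.37 (adjusted p = 0.00256). PHM6, a gene of the phosphate regulon, had -1.27 ± 0.20 from 1.30 in YSS37 and 0.03 in YSS89. GIT1, a glycerophosphoinositol transporter, had -2.85 ± 0.56, and PHM8, a lysophosphatidate phosphatase, -1.65 ± 0.38.

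Of 27 genes of sulfate assimilation and methionine metabolism 12 were called lower and 0 higher, with a median of -0.80, and 5 with -0.77 without replicates b and c. MET2, homoserine acetyltransferase, had -2.28 ± 0.49 (adjusted p = 0.00588), from 0.89 in YSS37 and -1.39 in YSS89. MET17, the enzyme that takes up sulfide, had -1.43 ± 0.24 (adjusted p = 0.00071), and SAM3, an S-adenosylmethionine permease, -1.82 ± 0.36 (adjusted p = 0.00308; 0.0588 without replicates b and c) through the brightest of 5 probe sets, of which 2 were called. Of 26 purine and one-carbon genes 11 were called lower and 0 higher with a median of -0.54, and 5 without replicates b and c. FCY2, the purine and cytosine permease, had -1.90 ± 0.20 (adjusted p = 1.53e-05). AAH1, adenine deaminase, and ADE4, the first enzyme of purine synthesis, had -1.97 ± 0.58 and -1.94 ± 0.57, and neither was called without replicates b and c (adjusted p = 0.406 and 0.162).

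Of 64 amino acid synthesis genes 4 (6.25%) were called higher, near the 4.95% of all genes, and 12 (18.8%) lower, against 8.77%. Their median of -0.06 turned to 0.15 after median centring. Without replicates b and c 3 were called higher and 6 lower. The lysine isozymes parted: LYS21 had 1.17 ± 0.19 (adjusted p = 0.00051) and LYS20 -1.24 ± 0.23 (adjusted p = 0.00203), both homocitrate synthases. LYS21 read 7.79, 7.73 and 7.78 and then 8.19, 8.05 and 8.08 in YSS37, and 7.09, 7.60 and 7.75 and then 9.03, 9.0 and 8.95 in YSS89. LYS20 read 8.70, 8.49 and 8.60 and then 8.94, 8.55 and 8.73 in YSS37, and 8.44, 9.10 and 8.73 and then 7.70, 7.74 and 7.55 in YSS89. At 30 min the YSS89 arrays were above all others for LYS21 and below all others for LYS20. HIS6, of histidine synthesis, had 1.22 ± 0.24, while GDH1, glutamate dehydrogenase, had -2.03 ± 0.39 and ASN1, asparagine synthetase, -1.63 ± 0.29.

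Of 54 general stress genes 13 were called lower and 1 higher, with a median of -0.65 that was -1.17 with 15 lower calls without replicates b and c. The lowest was GAC1, a regulatory subunit of protein phosphatase 1, at -1.62 ± 0.29 (adjusted p = 0.0014). The 1 higher call was SPG1, a stationary-phase gene, at 2.40 ± 0.49. It read 7.74, 7.77 and 7.36 and then 3.95, 3.93 and 4.26 in YSS37, and 6.21, 4.66 and 4.15 and then 3.91, 3.70 and 3.87 in YSS89. Both strains ended near the same low level, YSS37 began higher, and without replicates b and c the value was 1.19 (adjusted p = 0.0602). Of 31 Hsf1 targets and chaperones 9 were called lower and 0 higher, with a median of -0.49, and 5 were called lower without replicates b and c. SSA1, a cytosolic Hsp70, had -1.20 ± 0.18 (adjusted p = 0.000324), which became -0.33 after median centring (adjusted p = 0.467), and YDJ1, its J-protein partner, -1.30 ± 0.23 (adjusted p = 0.00131; 0.1 after median centring), which became -0.84 without replicates b and c.

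Among 46 cell cycle genes 11 were called lower and 0 higher, with a median of -0.23, and 4 without replicates b and c. CLB6, an S-phase cyclin, read 3.07, 2.47 and 2.77 and then 4.40, 4.24 and 4.35 in YSS37, and 3.64, 4.04 and 3.67 and then 3.17, 3.12 and 3.71 in YSS89. It was higher at 30 min in YSS37 and spread across a common range in YSS89 at both times, for an extra response of -2.01 ± 0.27 (adjusted p = 0.00011). CLB6 was dim, with every reading below the all-gene median level of 5.73 to 5.77. The repressors YOX1 and YHP1 had -1.40 ± 0.28 and -1.53 ± 0.37, and the G1 cyclin PCL1 -1.40 ± 0.33, of which YHP1 and PCL1 had adjusted p = 0.174 and 0.132 without replicates b and c. The G1 cyclins CLN1 and CLN2 had -1.13 and -1.06, with adjusted p = 0.135 and 0.172 without replicates b and c. Of 26 ergosterol genes 5 were called lower, led by ERG3, C-5 sterol desaturase, at -1.58 ± 0.21 (adjusted p = 9.36e-05). Of 24 iron and copper genes 5 were called lower, and 1 without replicates b and c, with the lowest value in the copper transporter gene CTR1 at -2.30 ± 0.49 (adjusted p = 0.0052; 0.0692 without replicates b and c). Of 33 proteasome genes 6 were called lower, with a median of -0.35, but 1 after median centring and 1 without replicates b and c. Of 4 histone genes measured alone 2 were called lower, and 0 without replicates b and c.

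The galactose pathway answered in both strains. GAL1, galactokinase, changed by 7.38 in YSS89 and 7.77 in YSS37, GAL7 by 7.83 and 8.31, GAL10 by 8.69 and 8.37, and the permease gene GAL2 by 7.73 and 8.08. The extra responses of these 4 genes were -0.40 ± 0.25, -0.48 ± 0.27, 0.32 ± 0.41 and -0.34 ± 0.33, none called. That of GAL10 turned to -0.77 without replicates b and c, and those of GAL1, GAL2 and GAL7 to 0.10, 0.26 and 0.06 after median centring. The Gal4-controlled regulators differed between the strains in opposite directions. GAL80, the repressor, read 6.02, 6.18 and 6.01 and then 7.69, 7.82 and 8.01 in YSS37, and 6.02, 6.13 and 6.07 and then 8.59, 8.50 and 8.60 in YSS89, an extra response of 0.72 ± 0.16 (adjusted p = 0.0066; 0.181 as deposited). GAL3, the galactose sensor, read 5.32, 5.10 and 4.98 and then 8.62, 8.63 and 8.62 in YSS37, and 5.50, 5.87 and 5.44 and then 7.96, 8.09 and 7.75 in YSS89. At 30 min the groups did not overlap for either gene, with YSS89 higher for GAL80 and lower for GAL3, whose extra response was -1.16 ± 0.19 (adjusted p = 0.00083). FUR4, the uracil permease gene next to GAL1, had 1.27 ± 0.29 (adjusted p = 0.00751; 0.0758 without replicates b and c).

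The marker genes of the strains were measured too. TRP1, whose chromosomal neighbour is GAL3, read 8.15, 8.11 and 8.40 and then 8.51, 8.47 and 8.56 in YSS37, and 8.79, 8.77 and 8.94 and then 7.84, 7.68 and 7.23 in YSS89. It was highest in YSS89 before galactose and lowest there at 30 min, for an extra response of -1.55 ± 0.20 (adjusted p = 6.94e-05). The array does not tell the native TRP1 locus from the copy behind the tagged IFH1. HIS3, which marks the exchanged upstream sequence in YSS89, had -0.12 ± 0.43 and was higher in YSS89 by 1.37 at 0 min.

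The genes with the highest values after IFH1 were mostly small non-coding RNAs and mitochondrial transcripts, and many of these moved with the 2 later arrays. RPR1, the RNA of RNase P, had 3.89 ± 0.69 (2.63 without replicates b and c). SNR17A, the U3 small nucleolar RNA, read 4.19, 3.62 and 3.21 and then 3.43, 3.70 and 3.76 in YSS37, and 4.95, 2.24 and 2.67 and then 5.80, 5.78 and 5.62 in YSS89. The 2 low values at 0 min were replicates b and c, and without them its extra response of 2.49 became 0.82 (adjusted p = 0.278). The mitochondrially encoded ATP6 went likewise from 1.92 to 0.41 (adjusted p = 0.547), COB from 2.45 to 1.40 (adjusted p = 0.205), and the a-factor gene MFA1 from 1.59 to 0.43 (adjusted p = 0.534). Of 18 mitochondrially encoded genes 5 were called higher with a median of 0.79, and 0 with 0.48 without those arrays. Of 25 small RNA genes 5 were called higher with a median of 0.29, and 3 with 0.31. Both lists were dim on this array. In the 4 groups the median log2 level was 2.37 to 3.41 for mitochondrially encoded genes and 2.8 to 3.37 for small RNAs. For all genes it was 5.73 to 5.77. SNR39 and SNR75, box C/D small nucleolar RNAs, did not turn on them, at 2.38 ± 0.33 and 2.02 ± 0.30 against 2.13 and 1.97.

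For the mating type, the 7 a-cell genes had a mean log2 level of 0.21 to 1.15 relative to the median of all genes over the 12 arrays, and the 5 alpha-cell genes -2.54 to -1.85. Levels of different probe sets cannot be set against each other, so these ranges do not test the label. Of the a-cell genes 1 was called in the extra response and of the alpha-cell genes 0.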

How the data were processed

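RNA of 24 samples was hybridized to Affymetrix YG_S98 arrays, 1 array a sample, per the file headers. The authors deposited an unlogged intensity for each probe set, scaled so that the 2% trimmed mean is 100.1 on each of the 12 arrays used; the summary algorithm is not given in the sources used here. From the 9335 probe sets 60 controls were left out. The deposited intensities were converted here to log2(intensity + 1.4), 1.4 being their 10th percentile, and quantile normalized. A model with 8 group means over all 24 arrays was fitted with limma 3.58.1 in R 4.3.3 (residual degrees of freedom 16, prior 2.71), p-values were adjusted by Benjamini-Hochberg over all 9275 probe sets, and a call is an adjusted p under 0.05. Folds are on the log2(value + 1.4) scale and understate changes of dim genes; the number of arrays limits the precision.

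Of the probe sets 6504 name 1 gene, 328 several and 2443 none; all 6504 matched the RefSeq gene table. A gene is its brightest 1-gene probe set, so 5656 genes were read. Arrays were grouped by the labels; replicates are called biological by the labels, which do not say whether they are separate cultures from separate days. Correlations of the deviations of same-lettered arrays ran from -0.059 to 0.197, so letters were not used as pairs. Hybridization rounds and chip lots come from the instrument files; lots B and C differ by a single zero in the recorded number and may be 1 lot.

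Members and the 32 gene lists were chosen with earlier results of these data known, so lists are described by counts and medians without a test. Named genes are the 15 highest and 15 lowest called genes, up to 4 called members of each list in each direction, all measured galactose, regulator and marker genes, and the extreme RP genes. A few further members were chosen after their values were seen (the RP copies RPS26A, RPL22A, RPL22B, RPL31A and RPL15B, and ICL1, CAT8, CIT2, YAT2, CLN1, CLN2 and RRP7). Scripts were tested on simulated data. Promoter and protein sequences were not used here. Alternatives tried were other pseudocounts, no or other normalization, a filter on dim probe sets, other variance settings, blocks, fewer arrays, and each of the 12 arrays left out in turn.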

Additional observations from a re-analysis of the deposited data

Results flagged for a closer look

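The extra response is itself a test of whether the change over the same 30 min of galactose differed between the strains as their arrays were run. It does not fully separate the change in YSS89 from hybridization round. YSS89 replicates b and c were in round 4 at 0 min and round 3 at 30 min. The YSS37 arrays were in round 1 at both times, and YSS89 replicate a in round 2 at both. By that test 280 genes had a larger and 496 a smaller change in YSS89 than in YSS37 (limma, adjusted p under 0.05), and IFH1 stood furthest out, with a difference of 5.01 on the log2 scale that was 4.77 to 5.18 when any of the 12 arrays was left out. With 3 arrays a group, no test for outlying arrays was run. YSS89 replicates b and c at 0 min stood apart by round and ribosomal RNA control signal, as described above.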

How the results depend on the processing

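The counts of calls changed with the arrays and rounds used, the scaling and the test. Higher and lower calls were 280 and 496 genes and 421 and 573 probe sets as reported. They were 133 and 262 genes and 194 and 293 probe sets when replicates b and c of the untreated YSS89 cells were left out, 26 and 85 genes and 37 and 91 probe sets within rounds, and 86 and 199 genes and 121 and 219 probe sets with round as a block. A fit on only the 12 arrays gave 97 and 220 genes and 166 and 262 probe sets, and a test against a 1.5-fold change gave 12 and 40 genes and 18 and 44 probe sets, fewer by its construction. Median centring gave 468 and 311 genes and 766 and 353 probe sets. Leaving out each array in turn gave 184 to 316 higher gene calls, with 184 without YSS89 replicate 3 at 30 min. The other causes were not tested.

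Among list medians, median centring gave 1.37 for the large-subunit and 1.33 for the small-subunit RP genes, 0.25 for translation factors, 0.67 for tRNA synthetases, -0.16 for chaperones, -0.14 for the respiratory chain, -0.75 for the TCA cycle, 0.04 for glycolysis, -0.19 for hexose transport, 0.15 for amino acid synthesis, -0.35 for purines, -0.16 for the proteasome and 0.64 for small RNAs, so that translation factors, glycolysis and amino acid synthesis changed sign. The values as deposited gave 1.08 and 1.04 for the RP subunits, -0.36 for RNA polymerases I and III, -0.43 for the respiratory chain, -1.05 for the TCA cycle, -0.25 for glycolysis and -0.50 for cell cycle genes. Median centring shifts each array of the values as deposited by a constant, so both scalings must give equal values when counted from the all-gene median. Counted so, a comparison added after the data were seen, the RP subunits stood at 1.26 and 1.22 and translation factors at 0.14. The respiratory chain stood at -0.25, the TCA cycle at -0.86 and glycolysis at -0.07. Within rounds the medians were 0.67 for small-subunit RP genes, 0.12 for translation factors, -0.45 for the respiratory chain, -0.96 for the TCA cycle and -0.37 for purines. The TCA cycle stood at -1.01 and small RNAs at 0.59 with round as a block, and the TCA cycle at -1.04 without replicates b and c. Leaving out single arrays moved the purine median between -0.69 and -0.25.

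Single genes that changed sign were EFB1 at 0.26, GPM1 at 0.05, GAL1 at 0.10, GAL2 at 0.26, GAL7 at 0.06, RPL37B at 0.77 and RPS28B at 0.93 after median centring, and RPL37B at 0.48, RPS28B at 0.64 and SFP1 at -0.21 as deposited. With round as a block GAL10 stood at -0.83, HMO1 at -0.18, RPL37B at 0.20 and SFP1 at -0.09, within rounds GAL10 at -0.77, HMO1 at -0.13 and RPL37B at 0.41, and without replicates b and c GAL10 at -0.77, HMO1 at -0.20, RPL37B at 0.20 and SFP1 at -0.10. With the mean of all its probe sets HIS3 stood at 0.45 and RPS28B at 0.04, and with a larger pseudocount HIS3 at 0.05. Leaving out single arrays took HIS3 from -0.41 to 0.11 and SFP1 from -0.09 to 0.16, and calls were lost in 9 of the 12 such fits for CKB1 and AAH1, 10 for ADE4, 8 for ATP6, 7 for MFA1 and 4 for SLX9 and NIP1. The replicate letters did not pair the arrays; with the letter as a replicate block 297 genes were called higher and 528 lower, and 453 and 614 probe sets, and with strain and letter 292 and 521 genes.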

Other observations

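Several of the lowest values belonged to genes outside the groups described. PHO3, an acid phosphatase repressed by thiamine, had an extra response of -2.94 ± 0.37 (limma adjusted p = 6.94e-05), from 0.72 in YSS37 and -2.23 in YSS89. It read 8.09, 7.37 and 7.02 and then 8.35, 8.12 and 8.16 in YSS37, and 8.40, 7.83 and 8.65 and then 6.16, 5.86 and 6.18 in YSS89, lowest on the 3 YSS89 arrays at 30 min. ECM13 had -2.96 ± 0.35 (adjusted p = 4.64e-05), PDH1, a mitochondrial enzyme of propionate breakdown, -3.05 ± 0.45, EDS1, a zinc-cluster protein, -2.74 ± 0.36, and MAL33, an activator of maltose genes, -2.68 ± 0.36. SUF2, a proline tRNA gene, had -2.71 ± 0.68, from 2.46 in YSS37 and -0.26 in YSS89, at low signal throughout. On the high side YNCJ0015W, a non-coding RNA gene, had 2.05 ± 0.28 (adjusted p = 0.000115) and RRT5 2.02 ± 0.44 (adjusted p = 0.00562). RRT5 too was at low signal throughout, with a mean of 8.03 in YSS89 at 30 min and 2.0 to 3.4 in the other groups.

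The genes beside IFH1 on chromosome XII were not called. UTP13, on one side, had -0.09 (adjusted p = 0.807), and UCC1, on the other, had -0.74 (adjusted p = 0.0532) and was higher in YSS89 by 1.31 at 0 min. Beside TRP1, SOK1 had -0.12 and GAL3 -1.16. Of the 2443 probe sets with no gene name 73 were called higher and 34 lower, and of the 328 naming several genes 32 and 12. Over all 9275 probe sets 4.54% were called higher and 6.18% lower. Of the 32 higher calls 20 were among the 59 probe sets that name RP genes alone.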
